A study of Homo sapiens with 8 samples.

Results

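DLD1 is an established cell line from a human colorectal tumor, and 1 library of DLD1 cells under hypoxia was compared with 1 library of untreated DLD1 cells. The genes described are those with 50 or more counts in either library, which were 14653 of the 54261 genes in the table. The series holds 8 libraries of total RNA depleted of ribosomal RNA, 1 for each condition. They come from the normal intestinal epithelial lines NCM460 and HIEC6 and the colorectal carcinoma (CRC) lines DLD1, HCT116 and HCT8, all untreated, and from the same CRC lines under hypoxia. All lines grew in DMEM with fetal bovine serum and were labelled as passage P5. The study lists DLD1 with mutated p53 and APC, and HCT8 with wild-type p53 and mutated APC. The oxygen level and the length of the hypoxia are not given in the sources used here.

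With 1 library a side, the DLD1 differences have no replicate check, and no p-value belongs to the pair itself. The total count was 51213432 in the untreated and 57374239 in the hypoxia library, within a range of 45519306 to 57374239 over the 8 libraries. The untreated CRC libraries and the hypoxia libraries carry different run labels, so run and treatment cannot be told apart. The hypoxia libraries of DLD1 and HCT116 and the untreated NCM460 library also carry an additional run label that the other 5 libraries lack. The library labelled NCM460 stood close to untreated HCT116, with a Pearson correlation across genes of log2(CPM + 1) of 0.994 (CPM, counts scaled to a common library total), as close as the DLD1 libraries stood to each other (0.994). NCM460 values are therefore given beside HCT116 values where they bear on a result. Epithelial genes were present in the DLD1 libraries, with EPCAM at 33357 untreated and 30065 counts under hypoxia.

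Cells sense oxygen through prolyl hydroxylases of the EGLN family, which mark the alpha subunits of hypoxia-inducible factor (HIF) for removal by the VHL protein while oxygen is plentiful. When oxygen falls, HIF alpha subunits persist, pair with ARNT and bind short DNA elements that share the core ACGTG or GCGTG. Their targets move glucose use toward glycolysis and lactate, export acid, trim mitochondria and send out signals for vessel growth, and in colorectal tumor cells several long noncoding RNAs are also known to respond.

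Promoters of a few HIF target genes are printed because their core motifs stand in windows of genes that differed in all 3 lines (CA9, ALDOC) and of genes that differed far less in DLD1 than in the other lines (ANKRD37, DDIT4). The sequences are the RefSeq promoter windows of GRCh38.p14, from 250 bases before to 50 bases after the start of each gene, and capitals mark ACGTG or GCGTG on either strand (CACGT or CACGC when read on the opposite strand). CA9 encodes a cell-surface carbonic anhydrase, and its window (chr9:35673678-35673977, plus strand) holds 1 site, which begins 18 bases before the start. ALDOC encodes a glycolytic aldolase, and its window (chr17:28576846-28577145, minus strand) holds 5 sites, some overlapping. ANKRD37 encodes a small ankyrin-repeat protein, and its window (chr4:185396591-185396890, plus strand) holds 3 sites. DDIT4 encodes an inhibitor of the growth kinase mTORC1, and its window (chr10:72273674-72273973, plus strand) holds 4.
CA9: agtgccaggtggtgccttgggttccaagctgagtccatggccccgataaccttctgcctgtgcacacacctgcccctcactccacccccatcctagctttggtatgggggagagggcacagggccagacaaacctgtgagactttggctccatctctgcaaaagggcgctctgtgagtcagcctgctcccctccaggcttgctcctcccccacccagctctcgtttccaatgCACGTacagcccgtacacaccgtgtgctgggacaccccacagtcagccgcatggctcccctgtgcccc
ALDOC: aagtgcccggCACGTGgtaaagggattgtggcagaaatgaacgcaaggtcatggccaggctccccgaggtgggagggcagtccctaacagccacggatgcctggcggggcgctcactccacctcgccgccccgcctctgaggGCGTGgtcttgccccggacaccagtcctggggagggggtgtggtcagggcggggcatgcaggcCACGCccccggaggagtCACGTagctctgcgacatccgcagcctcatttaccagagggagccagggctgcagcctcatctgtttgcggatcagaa
ANKRD37: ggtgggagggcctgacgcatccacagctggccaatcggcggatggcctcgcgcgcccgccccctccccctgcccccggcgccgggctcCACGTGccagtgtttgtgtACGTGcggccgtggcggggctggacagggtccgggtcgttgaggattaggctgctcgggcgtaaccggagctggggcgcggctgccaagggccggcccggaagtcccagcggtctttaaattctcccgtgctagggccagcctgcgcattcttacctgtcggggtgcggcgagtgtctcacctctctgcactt
DDIT4: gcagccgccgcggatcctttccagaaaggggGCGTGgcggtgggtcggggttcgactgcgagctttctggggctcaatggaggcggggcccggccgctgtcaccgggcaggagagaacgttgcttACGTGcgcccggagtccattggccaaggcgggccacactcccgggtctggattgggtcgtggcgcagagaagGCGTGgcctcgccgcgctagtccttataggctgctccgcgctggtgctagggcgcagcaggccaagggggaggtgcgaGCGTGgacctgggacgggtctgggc
All 4 windows hold the letters, and so do 48.4% of the 35116 windows in the table and 60.5% of the 14423 windows of matched genes with 50 counts in DLD1, so a match is a description of the sequence and not a site of binding. Symbols of 9902 of the 14653 genes matched a window, under the share needed to compare sets of genes by their promoters, and no such comparison is made.

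Under hypoxia, 779 of the 14653 genes (5.32%) were at least 2-fold higher in DLD1 and 302 (2.06%) at least 2-fold lower, a total of 1081 (7.38%). The median log2 difference of hypoxia minus untreated was -0.02, and all DLD1 differences are given on this log2 scale with 2 counts added per library. The same rule gave 11.7% higher and 13.9% lower of 14925 genes in HCT116, and 8.6% higher and 6.68% lower of 15214 genes in HCT8. Over the 12868 genes with 50 counts in every pair, the log2 differences had an SD across genes of 0.5 for DLD1, 0.68 for HCT8 and 0.94 for HCT116. The DLD1 pair thus had the narrowest spread of the 3, and its larger differences lay mostly above 0.

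**Figure D1:**
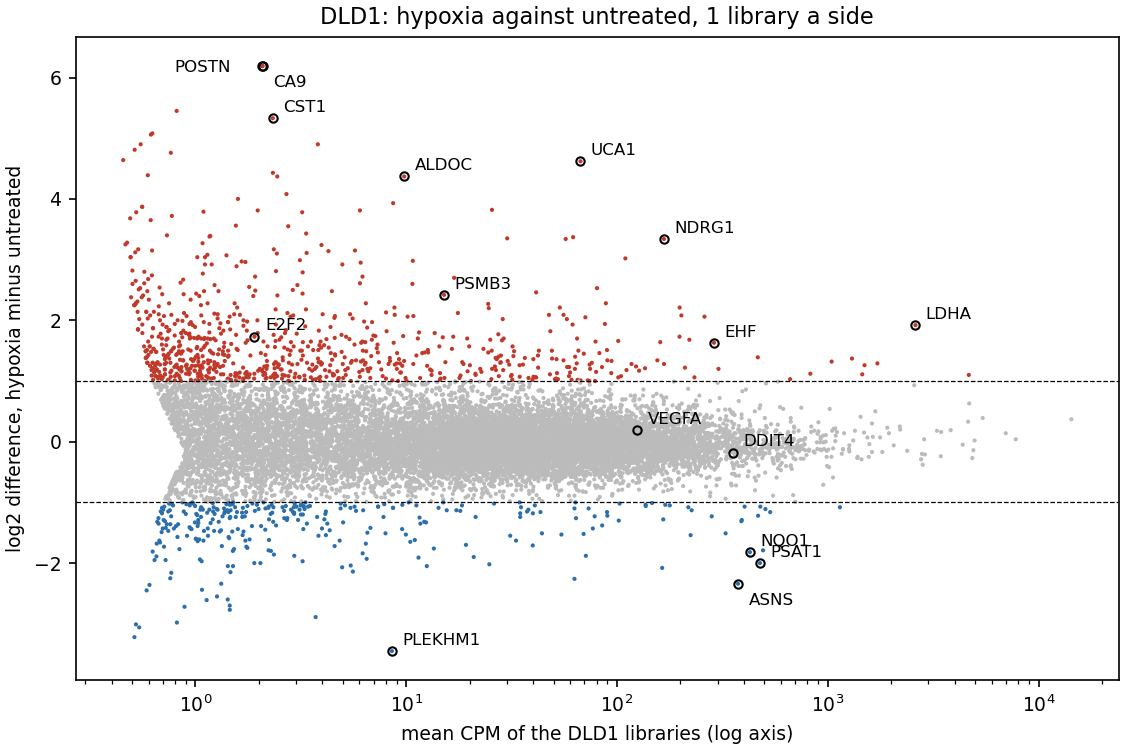
Log2 difference of hypoxia minus untreated (y axis) against the mean CPM of the DLD1 libraries (x axis, log scale) for 14653 genes, 1 library a side. Red points are the 779 genes at least 2-fold higher, blue points the 302 at least 2-fold lower, dashed lines mark 2-fold, and circled genes are named in the text.

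**Figure D2:**
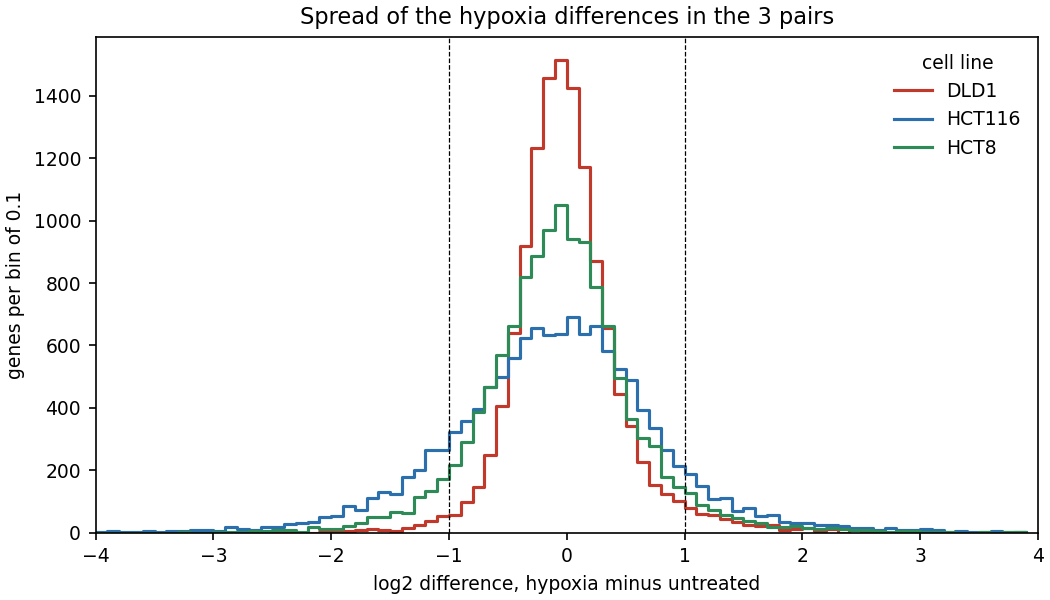
Number of genes (y axis, per bin of 0.1) by log2 difference of hypoxia minus untreated (x axis) for the 12868 genes with 50 counts in every pair, cut at -4 and 4. The DLD1 curve is the narrowest (SD 0.5), followed by HCT8 (0.68) and HCT116 (0.94).

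UCA1, a long noncoding RNA linked to colorectal and bladder cancer, had 273 counts in untreated DLD1 and 7549 under hypoxia, a log2 difference of 4.62. In HCT116 it went from 5064 to 33749 counts (2.99) and in HCT8 from 240 to 10740 (5.67), so that DLD1 lay between them. NDRG1, a stress protein that hypoxia and differentiation raise, had 1563 and 17737 counts in DLD1, a log2 difference of 3.34. Its differences in HCT116 (7827 to 223010 counts, 5.09) and HCT8 (2586 to 53506 counts, 4.56) were larger. Untreated NCM460, which carries the additional run label, had 29922 counts of NDRG1 and 1725 of UCA1, and HCT8, whose libraries lack that label, was higher under hypoxia for both genes. The part of the additional run in the DLD1 values was not tested.

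Of the 18 long noncoding RNAs tied to hypoxia or CRC with 50 counts, UCA1 among them, 5 were 2-fold higher in DLD1 and 0 lower, with a median of 0.17. MIR210HG and HIF1A-AS2 reached 50 counts only under hypoxia, and LUCAT1 (51 and 31 counts, -0.83) only untreated. These values are therefore partly set by the count minimum. MIR210HG, the host transcript of miR-210, had 14 counts untreated and 300 under hypoxia (4.08), with 3.67 in HCT116 and 4.91 in HCT8. Its product miR-210-3p, which these libraries did not measure as a mature miRNA, lies at chr11:568112-568133 on the minus strand (GRCh38.p14, RefSeq) and is shown with its seed, bases 2 to 8, in capitals.
hsa-miR-210-3p: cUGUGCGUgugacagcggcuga
HIF1A-AS2, antisense to HIF1A, had 9 and 262 counts in DLD1 (4.43). Whether the counting used strand is not given in the sources used here, so its reads and those of HIF1A (8347 and 9118 counts, -0.03) cannot be told apart. H19, an imprinted transcript, had 945 and 4492 counts (2.09) and LINC00511 had 72 and 202 (1.3). NEAT1, the scaffold of paraspeckles, had 15200 and 30764 counts, a log2 difference of 0.86 that stayed under 2-fold, against 1.85 in HCT116 and 2.22 in HCT8.

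Among the 9 HIF subunits and oxygen sensors with 50 counts, 1 was 2-fold higher in DLD1 and 0 lower, with a median of -0.03. That gene was EGLN3, the prolyl hydroxylase that HIF itself induces, with 534 counts untreated and 6068 under hypoxia. Its log2 difference of 3.34 stood beside 4 in HCT116 and 3.54 in HCT8, so all 3 lines were high. EGLN1, the main oxygen sensor, had 3348 and 7240 counts (0.95), just under 2-fold. EPAS1, which encodes HIF2 alpha, had 3166 and 4902 counts (0.47), against 1.46 in HCT116 and 0.72 in HCT8.

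Genes of glucose uptake, glycolysis and lactate formed the list with the most 2-fold higher genes in DLD1 by number: 16 of 25 were 2-fold higher, 0 lower, and 24 lay above 0, with a median of 1.28. The medians in HCT116 and HCT8 were 2.35 and 1.72, and the DLD1 difference was the smallest of the 3 in size for 18 of the 25. LDHA, which turns pyruvate into lactate, had 56925 counts untreated and 240527 under hypoxia in DLD1 (1.92), against 2.93 in HCT116 and 2.82 in HCT8. PDK1, the kinase that closes the entry of pyruvate into the mitochondrion, had 1886 and 8111 counts (1.94). The lactate exporter gene SLC16A3 had 1568 and 8551 counts in DLD1 (2.28), close to HCT8 (2.31), while HCT116 had 11346 and 14957 (0.65).

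ALDOC had 45 counts in untreated DLD1 and 1088 under hypoxia (4.37), far below its counts in HCT116 (1647 and 27706, 4.32) and HCT8 (4770 and 51201, 3.62), although the log2 differences were alike in size. PFKFB4, which makes the activator of phosphofructokinase, had 565 and 6576 counts (3.37), against 3.31 and 3.03. SLC2A1, the main glucose transporter, had 31566 and 52014 counts in DLD1 (0.56), with 3.11 in HCT116 and 1.71 in HCT8. SLC2A3, the high-affinity transporter, had 4060 and 14176 counts (1.64), against 551 and 26488 (5.84) in HCT116 and 719 and 11108 (4.14) in HCT8. Untreated DLD1 thus held the highest SLC2A1 and SLC2A3 counts of the untreated CRC lines. HK2, a hexokinase, had a log2 difference of 0.67 in DLD1, and GAPDH, an enzyme of the middle of the pathway, one of 0.63.

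Of 11 genes of acid balance and secreted hypoxia products, 5 were 2-fold higher in DLD1 and 0 lower (median 0.8, against 1.84 in HCT116 and 2.53 in HCT8). CA9 and STC1 (4 and 58 counts, 3.17) reached 50 counts only under hypoxia, so these values are partly set by the count minimum. CA9, whose product buffers acid outside the cell, had 1 count untreated and 242 under hypoxia, a ratio of 216 with a 95% counting interval of 38.5 to 8580. It had 6 and 1039 counts in HCT116 and 4 and 178 in HCT8, so the gene was near 0 without hypoxia in every CRC line, and NCM460 had 36 counts. ANGPTL4, a secreted inhibitor of lipoprotein lipase, had 54 and 952 counts in DLD1 (3.93), and ADM, a vasodilator peptide, had 590 and 2691 (2.02). VEGFA, the main signal for vessel growth, had 6094 and 7756 counts in DLD1, a log2 difference of 0.19, against 4369 and 13107 (1.84) in HCT116 and 3068 and 9467 (1.82) in HCT8. IGFBP3, which binds insulin-like growth factors, had 161 and 315 counts in DLD1 (0.8), against 201 and 4668 (4.78) and 67 and 708 (3.55). Both genes differed less in DLD1 than in either other line, and the CA9 difference lay between the other lines.

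Of 15 genes of mitophagy, growth arrest and hypoxia stress, 10 were 2-fold higher in DLD1 and 0 lower (median 1.32, against 3.16 in HCT116 and 2.03 in HCT8). BNIP3L, a mitophagy receptor, had 3676 counts untreated and 19016 under hypoxia (2.21), and its relative BNIP3 was at 0 and 5 counts in DLD1, too low to be among the genes described. BNIP3 was also near 0 in HCT8. BHLHE40, a repressor that HIF induces, had 1240 and 8010 counts (2.53), and MXI1, a MYC antagonist, had 786 and 2317 (1.4). ANKRD37, whose promoter is printed above, had 181 and 509 counts in DLD1 (1.32), against 48 and 10316 (7.94) in HCT116 and 56 and 2435 (5.58) in HCT8. DDIT4 had 19688 counts in untreated DLD1 and 19452 under hypoxia (-0.18), against 12753 and 139017 (3.7) in HCT116 and 9594 and 34223 (2.03) in HCT8. Untreated DLD1 had the highest counts of both genes among the untreated CRC lines, and under hypoxia it had the lowest. RIOK3, an atypical kinase, had 5116 and 4507 counts in DLD1 (-0.34), while HCT116 (1.98) and HCT8 (1.27) were higher.

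Among 11 collagen-modifying enzymes, 5 were 2-fold higher in DLD1 and 0 lower, with a median of 0.67. LOX, LOXL4 and LOXL2 (25 and 61 counts, 1.07) reached 50 counts only under hypoxia, so these values are partly set by the count minimum. PLOD2, which hydroxylates collagen lysines, had 4027 and 19071 counts (2.08), and P4HA1, a subunit of collagen prolyl hydroxylase, had 2785 and 7854 (1.33), against 3.74 in HCT116 and 2.72 in HCT8. Of the lysyl oxidase genes, which crosslink collagen, LOX had 18 and 163 counts in DLD1 (2.89) and LOXL4 had 12 and 74 (2.28). LOX, also a member of the mesenchymal list below, had 0 and 37 counts in HCT116 and 19 in NCM460, and it was at 0 in both HCT8 libraries, while LOXL4 hardly differed in HCT116 (276 and 292 counts, 0.33) or HCT8 (1372 and 1598 counts, 0.41). Among 16 chromatin demethylases that need oxygen and 2-oxoglutarate, 3 were 2-fold higher in DLD1 and 0 lower (median 0.25, against 0.89 and 0.47). They were KDM3A (1584 and 5769 counts, 1.7) and KDM4B (2652 and 6945 counts, 1.23), which remove methyl marks from histone H3, and TET1 (61 and 242 counts, 1.79), which oxidizes DNA methylcytosine.

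**Figure D3:**
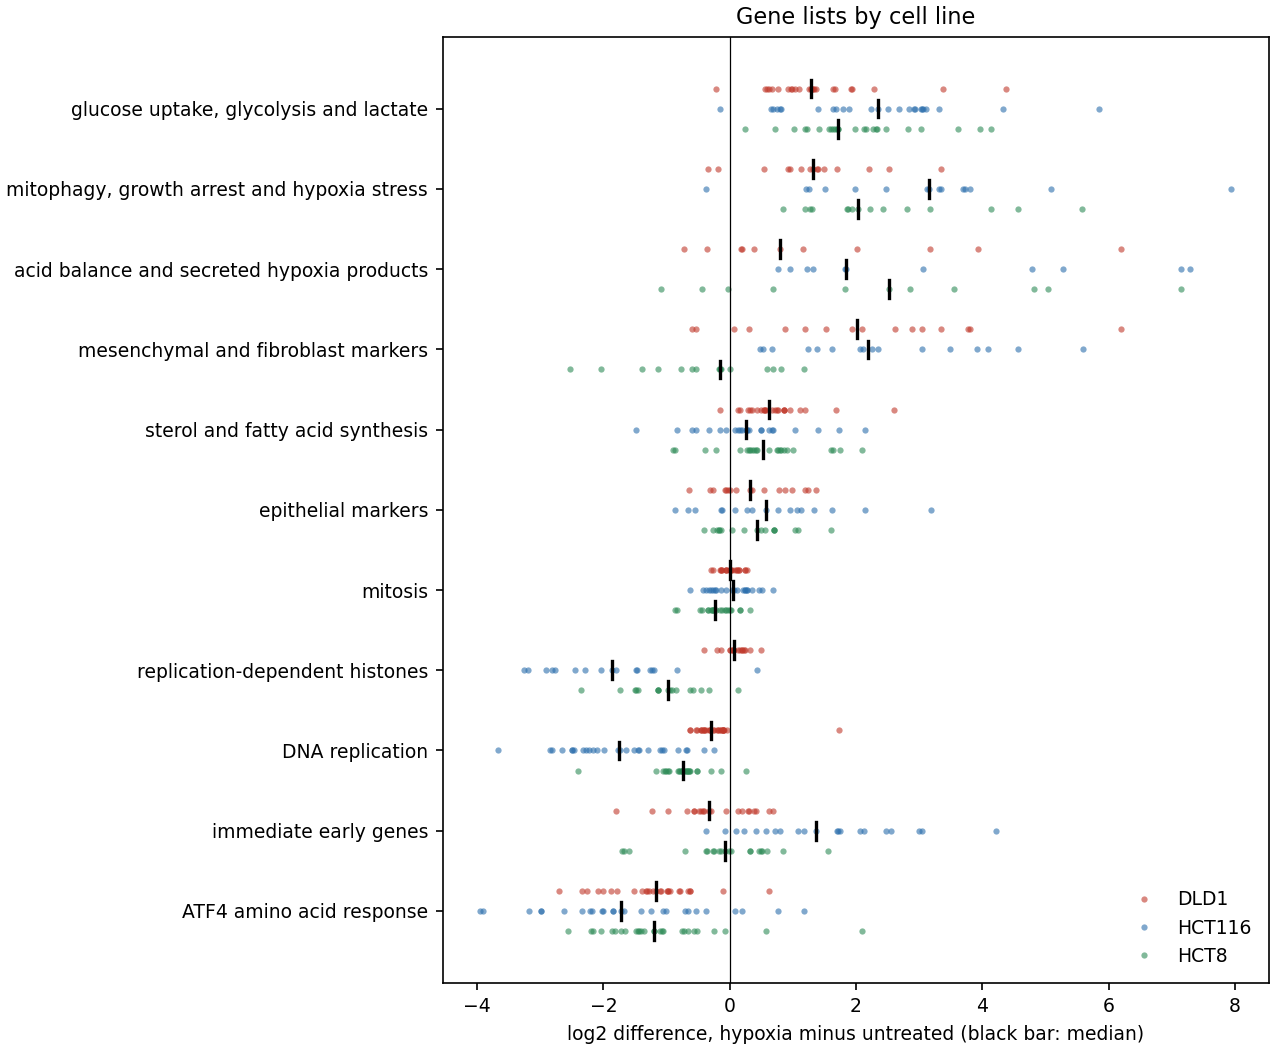
Log2 difference of hypoxia minus untreated (x axis) for the members with 50 counts in DLD1 of 11 gene lists (y axis), with 1 point per gene, colors for the 3 lines and black bars for medians. The DLD1 medians ranged from -1.16 for the ATF4 amino acid response to 2.01 for mesenchymal and fibroblast markers, and the DLD1 medians of the mitosis, histone and DNA replication lists were 0.01, 0.07 and -0.29.

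The ATF4 amino acid response was the group most often lower. ATF4 is a transcription factor that switches on amino acid synthesis and uptake when amino acids run short or the endoplasmic reticulum is stressed. Of its 27 genes with 50 counts, 16 were 2-fold lower in DLD1 and 0 higher, 26 lay below 0, and the median was -1.16, against -1.72 in HCT116 and -1.2 in HCT8. ASNS, asparagine synthetase, had 32718 counts untreated and 7203 under hypoxia (-2.34), against -3.9 in HCT116 and -2.19 in HCT8. PSAT1 and PHGDH, enzymes of serine synthesis, had 39736 and 11119 counts (-2) and 39897 and 12885 counts (-1.79). The glutathione-degrading enzyme gene CHAC1 had 5413 and 1266 counts (-2.26), and SESN2, a sensor of leucine, had 5842 and 1769 (-1.88). ATF4 itself had 48689 and 27321 counts (-0.99), with -1 in HCT116 and -1.05 in HCT8. DDIT3, a stress-induced factor of cell death, was a member that parted the lines: 905 and 405 counts in DLD1 (-1.32), against 0.77 in HCT116 and 0.58 in HCT8.

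The 19 endoplasmic reticulum chaperones and genes of the unfolded protein response held 0 members past 2-fold in either direction in DLD1, with a median of -0.13. HSPA5, the central chaperone, had 44499 and 45434 counts (-0.13), against 1.07 in HCT116 and 0.3 in HCT8. Of 17 targets of NRF2, the factor of the antioxidant response, 1 was 2-fold higher and 2 lower in DLD1 (median -0.29). The quinone reductase gene NQO1 had 34694 and 11013 counts (-1.82), against -0.45 in HCT116 and -1.16 in HCT8, and the cystine transporter gene SLC7A11, which also belongs to the ATF4 list, had 6403 and 2749 (-1.38). AKR1C3, an aldo-keto reductase, was the higher member (104 and 345 counts, 1.55). The 4 metallothioneins with 50 counts, which bind zinc and copper, had 0 members past 2-fold (median -0.32).

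Genes of sterol and fatty acid synthesis leaned upward in DLD1. Of 24 genes, 4 were 2-fold higher and 0 lower, but 23 lay above 0, and the median was 0.63, against 0.26 in HCT116 and 0.53 in HCT8. The DLD1 difference was above both other lines for 14 of the 24. HMGCS1, which makes the precursor of mevalonate, had 9614 and 24642 counts in DLD1 (1.2), against 2608 and 2632 (0.27) in HCT116 and 8037 and 9140 (0.38) in HCT8. For HMGCS1 DLD1 was the line that differed most, while INSIG1, the retention factor of the sterol sensor, was higher in all 3 lines (1.68 in DLD1, 2.15 in HCT116, 1.61 in HCT8). SCD, the fatty acid desaturase, had 48188 and 115961 counts (1.11). Of 9 genes of lipid droplets and fatty acid uptake, 0 were past 2-fold in DLD1 (median 0.44). HILPDA, a lipid droplet protein that HIF induces, had 1289 and 2752 counts (0.93), against 3.72 in HCT116 and 1.88 in HCT8.

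DNA replication genes hardly differed in DLD1 and were lower in the other lines. Of 28 genes, 1 was 2-fold higher in DLD1 and 0 lower, against 23 lower in HCT116 and 4 in HCT8, and the medians were -0.29, -1.75 and -0.74. The DLD1 difference lay above both other lines for 25 of the 28, although 27 of the 28 DLD1 values were themselves below 0. PCNA, the sliding clamp of DNA polymerase, had 23197 and 20987 counts in DLD1 (-0.31), against 13603 and 2029 (-2.49) in HCT116 and 18414 and 8070 (-1) in HCT8. MCM5, a subunit of the replicative helicase, had 8382 and 9111 counts in DLD1 (-0.04), against -2.49 and -0.76. The higher member was E2F2, an activator of S-phase genes, with 45 and 172 counts (1.73), whereas its counts were 72 and 7 in HCT116 (-2.84) and 94 and 14 in HCT8 (-2.4). E2F1 had 2831 and 2407 counts in DLD1 (-0.4).

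Replication-dependent histone genes, which are transcribed in S phase, showed the same order of the lines. Of 17, 0 were past 2-fold in DLD1, against 15 lower in HCT116 and 8 in HCT8, and the medians were 0.07, -1.86 and -0.97. HIST1H3A had 2820 and 3590 counts in DLD1 (0.19), against 1533 and 188 (-2.76) in HCT116 and 3715 and 1185 (-1.45) in HCT8, and DLD1 lay above both for 16 of the 17 genes. Histone genes are near-identical copies, and how reads with several matches were counted is not given in the sources used here. None of the 22 mitosis genes (0) was past 2-fold in any of the 3 lines, with medians of 0.01, 0.05 and -0.22. MKI67, the proliferation marker, had 27247 and 37082 counts in DLD1 (0.28).

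Of 23 p53 targets, 1 was 2-fold higher and 2 were lower in DLD1, with a median of 0.11. These counts stand beside 5.32% higher and 2.06% lower among all genes. In HCT116 1 was higher and 2 lower (median -0.28), and in HCT8 1 was higher and 4 lower (-0.16). CDKN1A, the cell cycle inhibitor, had 1100 and 1511 counts (0.3). The lower members were SESN2, already named, and PLK3, a polo-like kinase (787 and 423 counts, -1.05, against 0.07 in HCT116 and 0.35 in HCT8). TP53INP1, a stress protein, was the higher one, with 97 and 314 counts (1.51).

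The NF-kB, immediate early and interferon lists had medians of 0.07, -0.33 and -0.04 in DLD1, and their counts stand beside 5.32% higher and 2.06% lower among all genes. Of 16 NF-kB targets, 2 were higher and 0 lower (median 0.07): NFKBIA, the inhibitor of NF-kB (2239 and 5081 counts, 1.02, with 1.03 in HCT116 and 0.88 in HCT8), and the cytokine gene IL1A (4 and 53 counts, 3.04). IL1A reached 50 counts only under hypoxia, so its place in the list was set by the library where it was high. CXCL8, a neutrophil attractant, had 118 and 110 counts in DLD1 (-0.26), against 61 and 540 in HCT116 (3.36) and 117 and 22 in HCT8 (-2.12). Of 21 immediate early genes, which growth signals and handling switch on within minutes, 0 were higher and 2 lower in DLD1 (median -0.33), while 13 were higher in HCT116 (median 1.36) and 1 in HCT8 (-0.07). The lower ones were EGR1 (5724 and 2723 counts, -1.23) and EGR3 (123 and 38 counts, -1.8), factors that growth factor signals induce. DLD1 lay below both other lines for 15 of the 21. Of 16 interferon-stimulated genes, 3 were higher and 1 lower (median -0.04), and the antiviral gene IFIT1 had the largest difference, with 103 and 332 counts (1.51). The higher gene OASL (23 and 74 counts) reached 50 counts only under hypoxia, and the lower gene IRF7 (71 and 37 counts) only untreated.

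Epithelial genes stayed expressed. Of 17 epithelial markers, 3 were 2-fold higher and 0 lower in DLD1 (median 0.33). KRT19, a keratin, had 37777 and 109403 counts (1.37), with 1.62 in HCT116 and 1.6 in HCT8, and ELF3, an epithelial transcription factor, had 3825 and 10091 (1.24). CDH1, which encodes E-cadherin, had 54853 and 65968 counts (0.1). Of 14 genes of intestinal differentiation and mucins, 3 were 2-fold higher and 0 lower, with a median of 0.33, also with ANPEP at its lower bound. Of the 3, ANPEP and MUC5B reached 50 counts only under hypoxia. TFF2 (48 and 19 counts, -1.4) and CEACAM6 (47 and 21 counts, -1.24) were lower but lay just under the count minimum. MUC5B, a gel-forming mucin, had 2 and 59 counts in DLD1, a ratio of 26.4 with a counting interval of 6.99 to 223, and MUC1, a cell-surface mucin, had 78 and 381 (2.1). The peptidase gene ANPEP had 0 and 73 counts, so it was at least 21.8-fold higher against a floor of 3 counts. NCM460, which shares the additional run label, had 50 counts of ANPEP, and HCT116 had 13 and 125. Of 19 Wnt targets and feedback genes, 1 was higher and 0 lower (median 0.03). AXIN2, the feedback target used as a readout of Wnt signaling, had 38325 and 43654 counts (0.03), and the receptor gene EPHB2 had 1850 and 4850 (1.23).

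Mesenchymal and fibroblast markers were higher in the DLD1 hypoxia library, at low counts and together with the additional run label. Of 16 with 50 counts, 11 were 2-fold higher and 0 lower (median 2.01), with medians of 2.19 in HCT116 and -0.16 in HCT8. Some members, POSTN, COL1A2, COL6A3, LOX and CDH2 among them, reached 50 counts only under hypoxia. The share and the median are therefore partly set by the count minimum. Over other scalings and count minimums the median ranged from 2.01 to 2.61. The counts of all 25 markers summed to 1322 in untreated DLD1 and 7144 under hypoxia, to 3902 and 13376 in HCT116, to 2616 and 2336 in HCT8, to 7649 in NCM460 and to 127736 in HIEC6. In untreated DLD1, 5 of the 25 were at 0 counts (CDH11, TWIST1, TWIST2, THY1 and DCN), and under hypoxia 0 were. POSTN, a matrix protein of fibroblasts, had 1 and 241 counts in DLD1 (ratio 215, interval 38.3 to 8550), 6 and 320 in HCT116, 1 and 0 in HCT8, 167 in NCM460 and 1 in HIEC6. COL1A2, a chain of type I collagen, had 40 and 658 counts in DLD1 (3.81), 49 and 724 in HCT116 (4.09), 66 and 21 in HCT8 (-1.38) and 393 in NCM460. COL6A3, a chain of type VI collagen, had 21 and 351 counts in DLD1 (3.78), 41 and 404 in HCT116, 37 and 4 in HCT8 and 239 in NCM460.

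POSTN, COL1A2 and COL6A3 were thus high in the 3 libraries with the additional run label, the untreated NCM460 library included, and low in the other 5. FN1, which encodes fibronectin, had 280 and 3203 counts in DLD1 (3.35), 742 and 5131 in HCT116, 14 and 21 in HCT8, 2573 in NCM460 and 6616 in HIEC6, and VIM, which encodes vimentin, had 87 and 604 counts in DLD1 (2.61), 324 and 1142 in HCT116, 54 and 10 in HCT8 and 424 in NCM460. The transcription factor genes SNAI1 (209 and 153 counts, -0.6) and ZEB1 (53 and 74 counts, 0.31) stayed under 2-fold. Of the 25 genes 2-fold higher in DLD1 and HCT116 and under 0.5 in log2 or lower in HCT8, 9 (36%) were also at least 2-fold higher in NCM460 than in untreated HCT116, against 268 of 12868 genes (2.08%). Of the 151 genes higher in all 3 lines, HCT8 included, 21 (13.9%) were. Of the 42 genes shared with HCT8 and not HCT116 by the same rule, 2 (4.76%) were. The part of the additional run in these values was not tested, and the number of cells of a type and the RNA per cell cannot be told apart in bulk RNA. Without all genes 2-fold higher in NCM460 than in untreated HCT116, 652 genes were higher and 283 lower in DLD1. Of 12 endothelial and blood cell markers, 3 had 50 counts and 1 was 2-fold higher (VWF, a clotting protein of endothelium, 269 and 730 counts, 1.27). Their median was 0, PTPRC, the leukocyte common antigen, had 0 and 6 counts, and the sum over all 12 was 439 untreated and 930 under hypoxia.

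**Figure D4:**
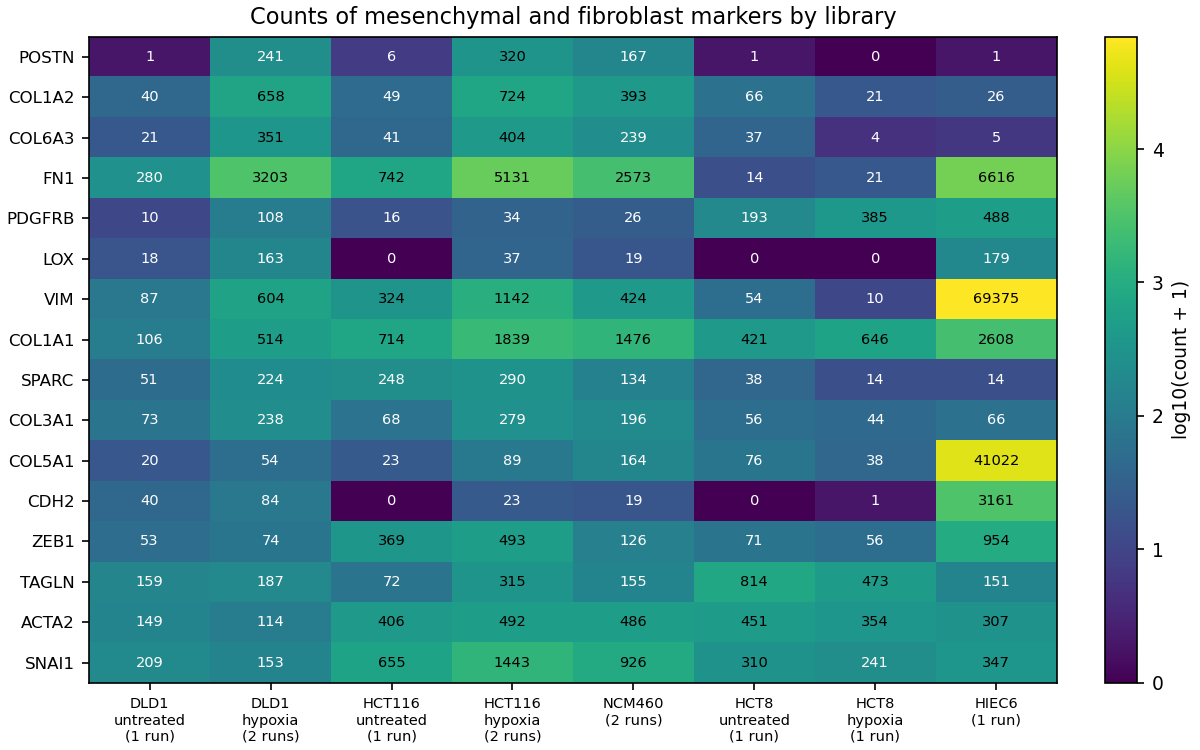
Counts (numbers in the cells, color as log10 of count + 1) of the 16 mesenchymal and fibroblast markers with 50 counts in DLD1 (rows) in the 8 libraries (columns), each marked with its number of run labels. POSTN, COL1A2 and COL6A3 were high in the 3 libraries with 2 run labels and low in the other 5.

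Transcripts of the respiratory chain differed little in DLD1. Of the 13 genes of the mitochondrial genome, 0 were past 2-fold in DLD1, and the differences lay between -0.41 and 0.41 with a median of 0.04, against medians of 0.97 in HCT116 and -0.77 in HCT8. ND6, on the strand opposite to the other protein genes, had 13270 and 12318 counts in DLD1 (-0.27), 68276 and 13461 in HCT116 (-2.09) and 21834 and 2047 in HCT8 (-3.22), and without knowledge of strand its reads cannot be told apart from those of its neighbors. Of 15 respiratory chain switches and nuclear subunits, 0 were past 2-fold (median -0.12). NDUFS1, a subunit of complex I, had the largest difference, with 186 and 112 counts (-0.88).

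The 15 largest differences upward held, beside the hypoxia genes above, several genes at or near 0 in untreated DLD1. CST1, a secreted inhibitor of cysteine proteases, had 4 and 267 counts in DLD1 (5.33), 0 in both HCT116 libraries, and 9 and 24 in HCT8. SLC5A9, a sodium-coupled sugar transporter, had 0 and 72 counts, so it was at least 21.5-fold higher, and it was at 0 in both HCT116 libraries and at 0 and 5 in HCT8. LCN15, a lipocalin, had 0 and 64 counts (at least 19.1-fold), 8 and 0 in HCT116 and 0 and 2 in HCT8. DUOX2, an oxidase of the gut surface, had 1 and 88 counts (ratio 78.7, interval 13.8 to 3140), 32 and 102 in HCT116, 14 and 64 in HCT8 and 90 in NCM460. PPFIA4, a liprin that hypoxia induces, had 11 and 432 counts in DLD1 (4.9) and was higher in HCT116 (2.88) and HCT8 (4.03) too. CST1 and SLC5A9 therefore had their highest counts of the 6 CRC libraries in DLD1 under hypoxia.

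Downward, PLEKHM1, an adaptor of lysosome fusion, had the largest difference, with 819 and 82 counts in DLD1 (-3.45), against 51 and 82 in HCT116 (0.91) and 40 and 38 in HCT8 (0.11). It was the untreated DLD1 library that stood apart from the other 5. PLEKHM1 shares sequence with the pseudogene PLEKHM1P1 (892 and 1237 counts in DLD1, 0.31), and how such reads were shared out is not given in the sources used here. HOXC8, a homeobox factor of body position, had 50 and 4 counts (-3.22), LY6E, a GPI-anchored surface protein, had 343 and 50 (-2.89), and NUPR1, a stress-induced chromatin protein, had 133 and 21 (-2.7). HOXC8, at 50, lay just inside the count minimum. At a highest count of 50 there were 58 genes, 11 of them 2-fold higher and 6 lower, and just outside, at 49, there were 48, 9 higher and 3 lower.

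Of the 779 genes 2-fold higher in DLD1, 445 had 50 counts in all 3 pairs, which is 3.46% of the 12868 such genes, against 8.85% in HCT116 and 5.04% in HCT8. Of these, 151 (1.17% of the 12868) were 2-fold higher in HCT116 and HCT8 as well, 77 in HCT116 alone, 71 in HCT8 alone and 146 in neither. Of the 302 lower genes, 186 (1.45%, against 13.9% in HCT116 and 6.27% in HCT8) had 50 counts in all 3 pairs, and 46 (0.357% of the 12868) were lower in both other lines, 32 in HCT116 alone, 36 in HCT8 alone and 72 in neither. A stricter rule asked for 2-fold in DLD1 and less than 0.5 in log2 either way in HCT116 and in HCT8. It left 43 higher genes (0.334%) and 16 lower ones (0.124%), and the higher ones numbered 25 with upper-quartile scaling, under which the differences of HCT116 shifted by 0.21 and those of HCT8 by 0.11. With only the HCT8 pair or only the HCT116 pair to set against DLD1, the higher genes numbered 131 and 123 and the lower ones 53 and 50.

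EHF, an epithelial transcription factor of the ETS family, had 7355 counts untreated and 25409 under hypoxia in DLD1 (1.63), against 8011 and 8241 in HCT116 (0.29) and 3075 and 3313 in HCT8 (0.3), and was 1 of the 43 higher genes. FOXA3, a factor of gut and liver, had 60 and 246 counts (1.84), against 379 and 254 (-0.32) and 696 and 646 (0.09). FGFR3, a receptor for fibroblast growth factors, had 185 and 737 counts (1.82), against 1832 and 1238 (-0.31) and 1817 and 2163 (0.45). The DLD1 hypoxia counts of FOXA3 and FGFR3 stayed below both libraries of HCT8, and untreated DLD1 had the lowest counts of the untreated CRC lines. LOXL4, given above, had the widest gap between DLD1 and the nearer of the other lines. PLLP, a membrane protein of myelin and epithelia, had 193 and 631 counts (1.54), GAMT, which makes creatine, had 162 and 373 (1.03), and the little-studied LRRC61 had 1325 and 3446 (1.22). Of these 43 genes, 4 (9.3%) were 2-fold higher in NCM460 than in untreated HCT116.

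Of the 16 lower genes, PLK3 was described above. PXK, a kinase-like protein of endosomes, had 1296 and 701 counts in DLD1 (-1.05), against 0.17 in HCT116 and 0 in HCT8. SERPINE2, a secreted protease inhibitor, had 2397 and 1339 counts (-1), against 11062 and 12448 (0.42) and 4533 and 3418 (-0.21). EIF3C, a subunit of the translation factor eIF3, had 1117 and 568 counts (-1.13), and its reads cannot be told from those of its near-identical copy EIF3CL (331 and 226 counts, -0.71). In 4 further genes the DLD1 pair and the other pairs were past 2-fold in opposite directions, E2F2 and PSMB3 higher in DLD1 (0.0155% of the 12868 genes) and TC2N and VPS11 lower (0.0155%). At a 3-fold rule, 10 higher genes and 0 lower genes were left, so the lower ones lay close to the limit.

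Genes that differed in HCT116 and HCT8 and hardly in DLD1 were more numerous. This class was defined after the values were seen. It held 89 genes 2-fold higher in both other lines and under 0.5 in log2 either way in DLD1 (0.692%) and 201 lower ones (1.56%). The higher ones included VEGFA and DDIT4, given above, and SPAG4, a protein of the nuclear envelope and sperm tail, with 56 and 54 counts in DLD1 (-0.21), 66 and 330 in HCT116 (2.54) and 79 and 397 in HCT8 (2.49). The lower ones included HIST1H4A and the arginine methylation cofactor gene WDR77, with 6537 and 6014 counts in DLD1 (-0.28), 3315 and 561 in HCT116 (-2.31) and 5106 and 1122 in HCT8 (-1.99). Over all 334 genes 2-fold higher in both other lines, the median difference was 0.93 in DLD1, against 1.75 in HCT116 and 1.55 in HCT8, DLD1 had the same sign in 309, and it was the smallest of the 3 in size in 263. Over the 387 lower genes, the medians were -0.47, -1.53 and -1.37, DLD1 had the same sign in 349, and it was the smallest in size in 366. Choosing genes by the other lines favors a smaller value in the line left out. Chosen in the same way by DLD1 and HCT8, HCT116 was the smallest in 104 of 222 higher genes (46.8%) and 45 of 82 lower ones (54.9%), and chosen by DLD1 and HCT116, HCT8 was in 108 of 228 (47.4%) and 40 of 78 (51.3%), beside 78.7% and 94.6% for DLD1. These shares were computed after the values were seen and were not tested.

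**Figure D5:**
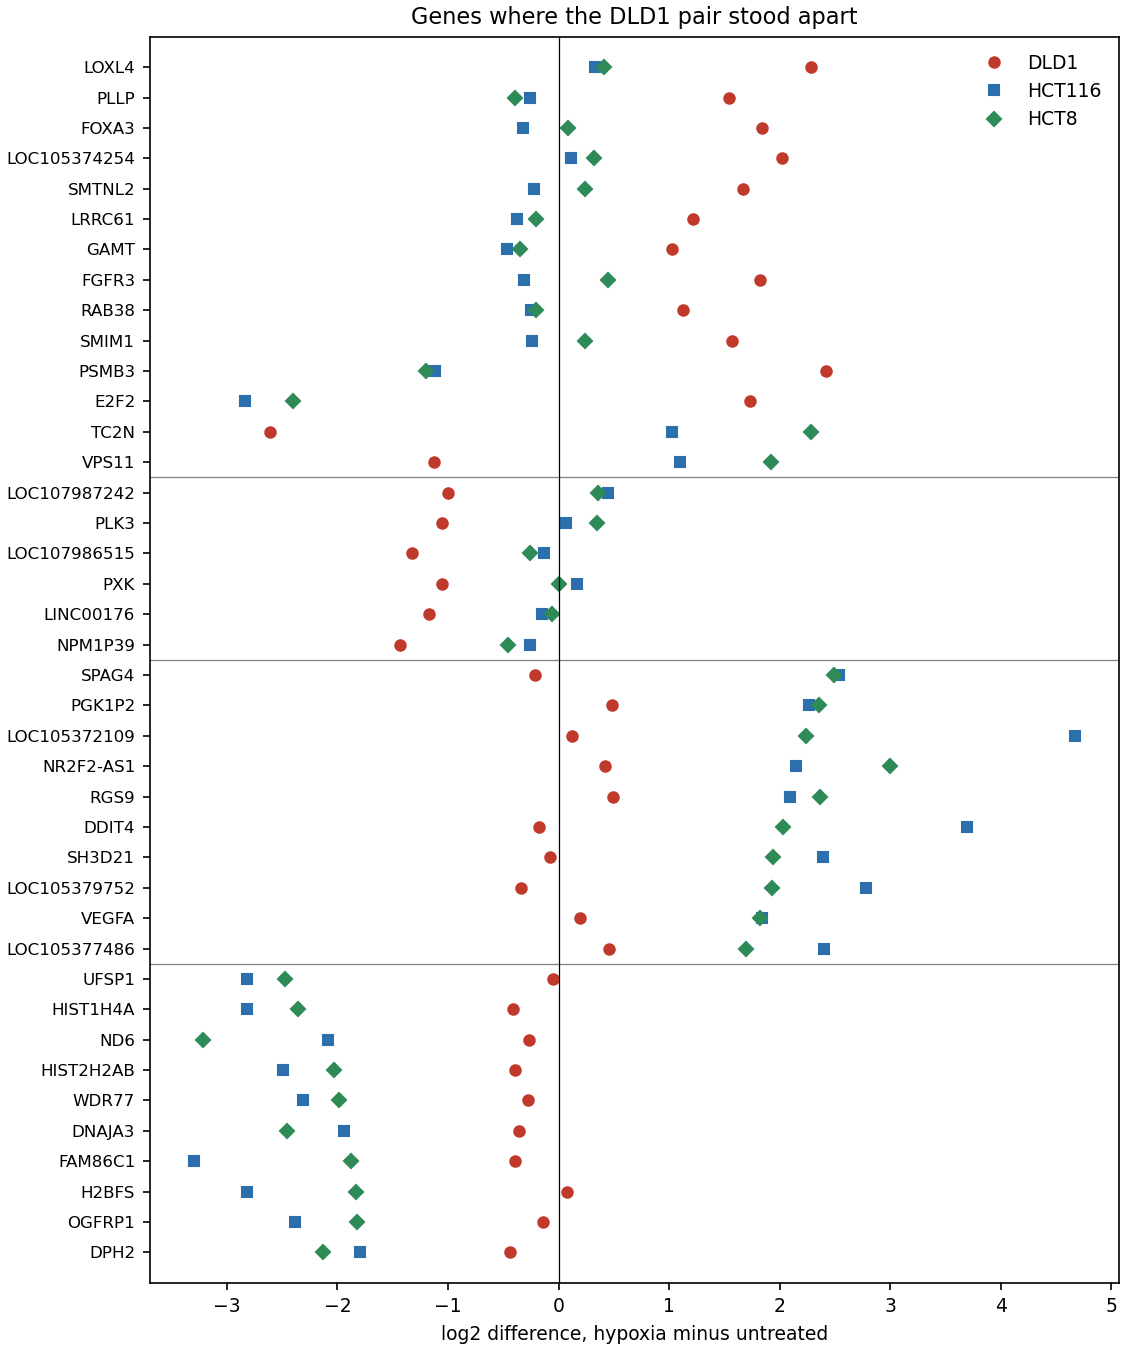
Log2 difference of hypoxia minus untreated (x axis) in DLD1 (circles), HCT116 (squares) and HCT8 (diamonds) for 40 genes (y axis), 1 library a side. The blocks are separated by lines. The top block holds genes 2-fold higher in DLD1 with little difference in the others. It also holds the genes that went opposite ways, PSMB3 and E2F2 higher in DLD1 and TC2N and VPS11 lower. Below are genes 2-fold lower with little difference, and genes with a large difference in the others alone, higher and then lower.

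Whether the DLD1 response differed from that of the other lines was tested with edgeR's quasi-likelihood test, in a fit over the 6 CRC libraries with a term for each line. The gap between the HCT116 and HCT8 responses was its only measure of error (1 residual degree of freedom). The Benjamini-Hochberg adjusted p-value was under 0.05 for 0 of 21045 genes (0%), the smallest adjusted p being 1, and 504 genes had an unadjusted p under 0.05, where 1052 would be expected by chance. No gene named above is therefore shown by this test to respond differently in DLD1. The smallest unadjusted p-values belonged to ANKRD37 (DLD1 minus the others -5.48, SE 0.85, adjusted p = 1 in edgeR), to COL6A2, a chain of type VI collagen (11 and 169 counts in DLD1, 7523 and 8899 in HCT116, 6 and 7 in HCT8, 6212 in NCM460), and to IGFBP3. CLDN2, which encodes a pore-forming tight junction protein, had 1434 and 2423 counts in DLD1 (0.59), against 81 and 13 (-2.25) in HCT116 and 676 and 81 (-2.84) in HCT8. With the same terms DESeq2 called 4 genes, ANKRD37 (adjusted p = 4.29e-05), CLDN2, IGFBP3 and SLC2A3 (each adjusted p = 0.048), and limma-trend called 0, with 478 genes at an unadjusted p under 0.05. In counts simulated for this comparison at the observed coefficient of variation of 0.316, edgeR's test recovered 2.5% of genes set to differ by 2 in log2 and 89% of those set to differ by 4. The simulation used that coefficient for every gene and gave each gene the same mean CPM in every line. Only genes above 1 CPM were set to differ, so these shares may not hold for the real counts. Of the histone genes, 14 of 17 had an unadjusted p under 0.05, and of the DNA replication genes 6 of 28, against 2.39% of all genes tested. Hypoxia lists held such genes too, with 9 of 15 for mitophagy, growth arrest and hypoxia stress and 9 of 25 for glucose uptake, glycolysis and lactate. The numbers were 4 of 11 for acid balance and secreted products, 4 of 11 for collagen-modifying enzymes and 0 of 22 for mitosis. The lists were chosen with earlier results of these data known and their members are not independent, so these shares are no test of the lists.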

How the data were processed

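Total RNA of 8 cell line libraries was depleted of ribosomal RNA and sequenced. The authors deposited raw counts per gene, without normalization, for 54261 genes. The study states alignment to GRCh37.p13, while the submitters' processing notes name GRCh38 and HISAT2 2.0.4. The counter, its strand setting and its treatment of reads with several matches are not given in the sources used here. The extraction label names a tissue other than these lines. All columns were used (0 left aside), and groups came from the sample titles.

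Log2 differences used TMM library sizes over the 6 CRC libraries (edgeR 4.0.16, R 4.3.3) and a prior of 2 counts. Total counts of 45519306 to 57374239 put the floor of 3 counts at 0.0523 to 0.0659 CPM. Intervals and floors cover counting error only. The difference between lines was tested with glmQLFit and glmQLFTest on genes that reached 10 counts in 2 or more libraries, with Benjamini-Hochberg adjustment (threshold 0.05). Among the CRC libraries, samples with the same replicate number come from 1 cell line and form pairs. Libraries of 1 line deviated together, with correlations of 0.82 (HCT8), 0.836 (DLD1) and 0.857 (HCT116), against -0.61 to -0.06 between lines. Where nothing says that libraries came from separate cultures, p-values measure only the spread between these libraries.

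The genes, the 27 lists and the rules were chosen with earlier results of these data known. Named genes were UCA1 and NDRG1, up to 4 members a list with the largest DLD1 difference plus defining members, the 15 largest differences per direction, the 15 genes per direction with the widest gap to the other lines, genes of opposite direction and the smallest p-values of the test. Alternatives were other scalings, prior counts, count and fold minimums, thinned counts, DESeq2 1.42.0, limma-trend (limma 3.58.1), no replicate block and each other pair or library left out. The test was tried on simulated counts. Some items are not reported here.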

Additional observations from a re-analysis of the deposited data

Results flagged for a closer look

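In 4 genes the DLD1 pair differed by at least 2-fold in the direction opposite to the HCT116 and HCT8 pairs. Of the 12868 genes with 50 counts in every pair, 2 were higher in DLD1 and lower in the others (0.0155%) and 2 the reverse (0.0155%), and edgeR's test of the difference gave an adjusted p = 1 for each. PSMB3, a proteasome subunit, had 248 and 1490 counts in DLD1 (log2 difference 2.42), against 191 and 73 in HCT116 (-1.12) and 177 and 66 in HCT8 (-1.2), with 2722 counts in HIEC6. E2F2, the S-phase activator, had 45 and 172 counts in DLD1 (1.73), against -2.84 and -2.4. TC2N, a C2-domain protein, had 103 and 17 counts in DLD1 (-2.61), against 54 and 94 (1.03) and 52 and 228 (2.28). VPS11, a subunit of the endosome tethering complexes, had 55 and 27 counts in DLD1 (-1.13), against 45 and 83 (1.1) and 62 and 210 (1.92). The counts of E2F2, TC2N and VPS11 were low in all 6 CRC libraries.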

How the results depend on the processing

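The counts of genes past 2-fold moved mainly with the rule. For genes higher, lower, higher in DLD1 with little difference in the others, and lower likewise, they were 3551, 2443, 603 and 576 with no minimum count, 2012, 1018, 102 and 54 with at least 10 counts, and 370, 136, 23 and 6 with at least 200. They were 1690, 1045, 166 and 102 at 1.5-fold and 306, 78, 10 and 0 at 3-fold. With the other pairs only required to be under 2-fold, the last 2 counts were 131 and 57. Without the HCT116 pair or the HCT8 pair they ranged from 123 to 131 and from 50 to 53, since 1 condition fewer applies. Upper-quartile scaling left 25 of the higher kind. It shifted the median of all genes by 0.209 in HCT116 and 0.11 in HCT8, and library totals by -0.337 in HCT116, while the DLD1 median shifted by -0.002 to 0.02. Without the genes 2-fold higher in NCM460 than in untreated HCT116, a choice made after seeing the data, the counts were 652, 283, 39 and 16.

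Without the replicate block, edgeR's test of the difference called 0 genes (52 at an unadjusted p under 0.05), and so did limma-trend, upper-quartile scaling, a minimum of 10 counts in every library, each library of HCT116 or HCT8 left out with no block (0 to 0) and, chosen after seeing the data, only genes with 50 counts in DLD1. DESeq2 called 4 genes and a minimum of 1 count in any library called 43. The cause was not tested.

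Of list members, at least 10 counts gave 1 long noncoding RNA lower, 1 lipid droplet gene higher, 3 mucin and differentiation genes lower, 18 mesenchymal markers higher, 2 endothelial and blood markers higher and 4 NRF2 targets lower. At least 200 counts gave 2 collagen-modifying enzymes higher, 0 DNA replication genes higher, 1 NF-kB target higher, 1 immediate early gene lower, 0 interferon genes lower and 1 mucin gene higher. Of 1152 values of the named genes under other scalings, prior counts and thinning, 1139 moved by less than counting error and 13 by more. Of the values of genes at least 2-fold different in DLD1, 0 changed sign. A change of sign was not counted for smaller differences. Genes near 50 counts are limited by depth.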

Other observations

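Small noncoding RNAs with 50 counts in DLD1 leaned downward, by RefSeq gene types of GRCh38.p14, whose symbols matched 13968 of the 14653 genes. Of 148 small nucleolar RNAs, which guide modification of ribosomal and spliceosomal RNA, 0 were 2-fold higher and 13 (8.78%) lower in DLD1 (median -0.31). Of the same 148, 19 were lower in HCT116 (median -0.09) and 71 in HCT8 (-0.94). Among all genes with 50 counts in each pair, 2.06% were lower in DLD1, 13.9% in HCT116 and 6.68% in HCT8. The 19 in HCT116 thus stood near the share of all genes in that line. SNORD78, from an intron of the GAS5 host gene, had 141 and 46 counts in DLD1 (-1.73), 71 and 40 in HCT116 (-0.56) and 104 and 27 in HCT8 (-1.68). Of 39 transfer RNA genes, 0 were higher and 8 lower in DLD1 (median -0.44), against 20 lower in HCT116 and 27 in HCT8. Transfer RNA genes are near-identical copies, so counts of single genes are uncertain. Long noncoding RNAs were past 2-fold more often than protein-coding genes in DLD1, with 9.86% of 903 higher and 4.98% lower, against 4.77% and 1.45% of 11931. The gene types were not matched for count level.

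Of the 94 genes with 1000 or more counts in both HCT116 libraries and 10 or fewer in untreated DLD1, the median DLD1 count was 3 untreated and 5 under hypoxia. Of these, 67 stayed at 10 or fewer under hypoxia and 3 reached 50. Their DLD1 counts summed to 0.106% of the HCT116 counts in the untreated libraries and to 0.32% under hypoxia. The rule capped the count in untreated DLD1 and not under hypoxia, which favors a higher share under hypoxia. No conclusion is drawn from the difference between the shares.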
